A study of Mus musculus with 8 samples.

Results

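Gene expression in the ascending aorta of newborn mice lacking lysyl oxidase was compared with that of wild-type newborns, using 4 of the 8 arrays of the study. The mutant group (KO) was 2 pools of ascending aorta from Lox knockout pups, and the wild-type group (WT) was 2 pools from wild-type pups. All pups were killed at p0, the day of birth, and shared an albino C57BL/6J background. Each pool joined the frozen tissue of 8 pups of 1 genotype, so n = 2 pools in each group and the spread between single pups was not measured. The ascending piece began at the aortic valve and ended where the ductus arteriosus joins. The other 4 arrays held the descending aorta of KO and WT pups, cut off at the diaphragm. They were used to estimate the spread, and as a second segment in which each change could be read again. Neither the exons that the Lox allele lacks nor whether the same pups gave both segments is stated in the sources used here. Genes were taken from probe sets with exactly 1 gene symbol, 1 probe set a gene, and 16635 genes bright enough to test remained of 22180. Values are log2 signals after RMA, a background correction and normalization across arrays, and they are given for pool 1 and then pool 2 of each group. A difference of 1 on this scale is a doubling, and a difference is always KO minus WT.

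Lysyl oxidase is a copper enzyme that oxidizes lysine side chains in tropoelastin and in collagen, so that the chains can crosslink into elastic lamellae and strong fibrils. In the aorta it is secreted mainly by smooth muscle cells, which lay down the lamellae before and shortly after birth and carry the pulsing load of each heartbeat. Mice without it die around birth with a weak aortic wall that can dilate and rupture, and in people LOX mutations cause thoracic aortic aneurysm. The ascending segment lies next to the valve and the outflow tract of the heart, and its smooth muscle comes from neural crest and second heart field progenitors.

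Lox itself had levels of 8.87 and 8.74 in KO pools, against 11.47 and 11.60 in WT pools. The KO values lay far below both WT values without reaching the dim limit of 4.11, and the sources used here do not say whether the probes lie inside the deletion. The difference was -2.73 (SE 0.11, limma adjusted p = 5.35e-05), a 6.65-fold lower signal. The related crosslinking enzymes were not called. Loxl1 had 10.75 and 10.68 in KO pools, between the WT values of 10.83 and 10.55. Loxl3 had 7.71 in both KO pools, against 7.37 and 7.34 in WT pools (difference 0.35, adjusted p = 0.1), and Loxl4 had 6.06 and 6.09 in KO pools, against 6.17 and 6.10 in WT pools. Loxl2 was not analysed here.

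Of the 16635 genes tested, 455 passed an adjusted p of 0.05 in the limma fit and are called changed below, which is 2.74% of the genes. Of these, 257 rose in KO pools (1.54% of the genes tested) and 198 fell (1.19%). The median rise was 0.79 and the median fall -0.72, and 81 genes were at least 2-fold higher and 36 at least 2-fold lower. The middle 50% of all tested genes differed by -0.14 to 0.15, with a median of 0.01. With 2 pools a side, the values of KO and WT pools did not overlap for 49.5% of all genes tested, so a lack of overlap alone says little. The number of arrays limits the precision, and p-values measure only the spread between pools. When each of the 4 ascending arrays was left out in turn, 35 of the 455 calls held every time (26 higher, 9 lower), and any of these described below is marked as a stable call. Leaving an array out also lowers the number of samples in the fit. The count of calls was 64 without WT replicate 2, 90 without KO replicate 1, 105 without WT replicate 1 and 143 without KO replicate 2.

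**Figure D1:**
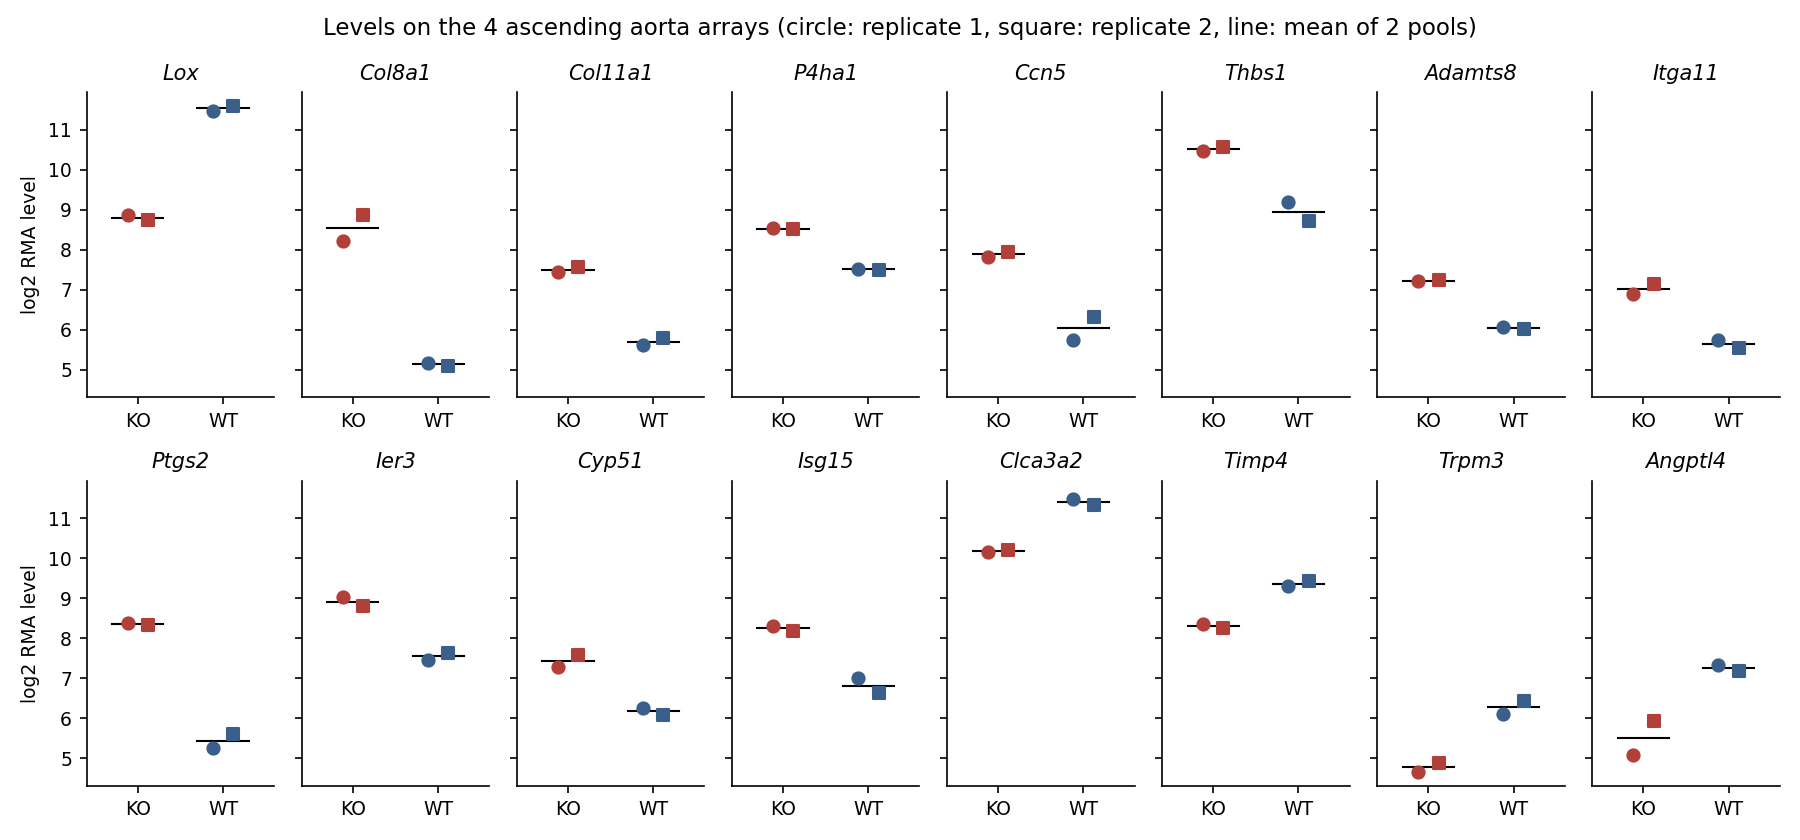
Log2 signal of 16 genes on each of the 4 ascending aorta arrays, with KO pools left of WT pools and each point 1 array (a pool of 8 pups). The KO points for Lox, at 8.87 and 8.74, sit below the WT points at 11.47 and 11.60, and those for Col8a1, at 8.21 and 8.88, sit above the WT points at 5.16 and 5.10.

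The pools carried the markers of the labelled tissue. Acta2 and Myh11, the actin and the myosin heavy chain of smooth muscle, had 12.42, 12.56 and 10.67, 10.83 in KO pools, against 12.63, 12.63 and 10.67, 10.55 in WT pools, and neither was called (adjusted p = 0.518 and 0.521). Acta2 and Myh11 were chosen for this check after their values were seen. Genes of neighbouring tissues were present at unequal levels in the pools, and the WT pools differed from each other. The summed level of 12 lung epithelium markers (of 14 measured, with Lamp3 and Slc34a2 dim) was 8.61 to 8.80 in KO pools, against 8.79 to 11.09 in WT pools. The club cell secretory gene Scgb3a1 had 6.60 and 6.02 in KO pools, against 6.52 in WT pool 1 and 10.19 in WT pool 2. The summed level of 19 thymus and lymphocyte markers was 9.55 to 9.82 in KO pools, against 9.44 to 10.58 in WT pools, and Cd3d, of the T cell receptor complex, had 5.47 and 5.77 in KO pools, against 7.71 in WT pool 1 and 5.78 in WT pool 2. Neither list had a call. The median of the thymus list was -0.19, but -0.48 without WT replicate 2 and 0.12 without WT replicate 1.

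Heart muscle markers were carried by all 4 pools, with summed levels of 12.91 to 13.37 in KO pools and 12.80 to 13.20 in WT pools. Of 26 tested (Hcn4 was dim), Tnnc1, the cardiac troponin C, rose by 1.28 (adjusted p = 0.0395), Tecrl, a gene of heart rhythm, fell by 1.73 (adjusted p = 0.0255), and the list's median of 0.01 moved to -0.36 without WT replicate 1 and to 0.23 without KO replicate 1. Liver-made plasma protein genes had summed levels of 10.60 to 10.70 in KO pools, against 10.20 to 10.23 in WT pools, with a median of 0.40 and 0 of 13 called. Skeletal muscle and oesophagus markers, with Myh4 dim, had sums of 9.63 to 10.48 in KO pools and 9.36 to 10.84 in WT pools. Of those 14 tested genes the keratin Krt14 rose, by 0.91 (adjusted p = 0.00952), and that call ended without WT replicate 2 (adjusted p = 0.0608). Sympathetic neuron and Schwann cell lists had 0 of 21 and 1 of 12 members called, the Schwann cell gene being Egr2, which is also an immediate early gene. The part of these tissues in the results below was not tested.

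Among structural proteins of the wall, a pair of collagen genes changed most. Col8a1, a short-chain collagen made by smooth muscle and endothelial cells of remodelling vessels, had 8.21 and 8.88 in KO pools, against 5.16 and 5.10 in WT pools. Both KO pools were far above both WT pools, a difference of 3.41 (SE 0.22, adjusted p = 0.000551) or 10.7-fold, and the call was stable. Col11a1, a chain of the fibrillar collagen that nucleates thin fibrils, had 7.44 and 7.57 in KO pools, against 5.61 and 5.79 in WT pools. Its rise of 1.80 (SE 0.11, adjusted p = 0.000551) was also stable. Col6a6, a microfibrillar collagen chain, fell by 0.52 (adjusted p = 0.0489), and no leave-out kept that call. Col8a2, the partner chain of Col8a1 in type VIII collagen, had 4.78 and 4.66 in KO pools, against 4.14 and 4.67 in WT pools, and was not called (adjusted p = 0.37).

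The major fibrillar collagens were not called. All 11 members of that list had a positive difference, from 0.01 to 1.80 with a median of 0.19, but Col11a1 was the 1 call. The median was 0.09 without KO replicate 1 and 0.27 without KO replicate 2. Col1a1, of type I collagen, had 11.05 and 10.90 in KO pools, against 10.72 and 10.70 in WT pools (adjusted p = 0.222). Eln, elastin, had 12.43 and 12.35 in KO pools, against 12.04 and 12.21 in WT pools (adjusted p = 0.249). The KO values lay above the WT values for both genes, by 0.26 each. Of 18 elastic fibre genes, Ltbp2, a fibrillin-binding protein, was called, with 10.22 and 10.18 in KO pools, against 9.68 in each WT pool. That rise of 0.52 (adjusted p = 0.0312) was lost without each of the 4 arrays, where its adjusted p was 0.0947 to 0.141. The elastic fibre list had a median of 0.11, and 0.04 without KO replicate 2. None of 22 basement membrane genes was called, and 15 of them had negative differences. Their median was -0.12, between -0.18 without KO replicate 1 and -0.06 without KO replicate 2, and the laminin chain Lama4 had 9.09 and 9.25 in KO pools, against 9.59 in each WT pool (adjusted p = 0.0653).

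Of 22 tested members of the list of collagen processing and crosslinking genes 6 rose (27.3%, against 1.54% of all genes tested) and 0 fell. The list's median was 0.29, against 0.01 over all genes. P4ha1, the catalytic subunit of the prolyl hydroxylase that stabilizes the triple helix, had 8.54 and 8.51 in KO pools, against 7.53 and 7.49 in WT pools. The pools of each genotype lay close together, and the rise of 1.01 (SE 0.10, adjusted p = 0.00527) was stable. Plod2, which hydroxylates the telopeptide lysines that lysyl oxidase acts on, had 9.33 and 9.42 in KO pools, against 8.73 and 8.69 in WT pools (difference 0.66, adjusted p = 0.0258). Fkbp14, a prolyl isomerase of the endoplasmic reticulum, rose by 0.88 and P4ha3 by 0.51. Tgm2, a transglutaminase that makes crosslinks of another kind, rose by 0.83, and Pcolce, which enhances removal of the procollagen C-propeptide, rose by 0.47. Of the 6 calls P4ha1 was the stable one, and Plod2 had adjusted p-values of 0.092 to 0.12 in the 4 leave-outs. Pcolce was chosen after its values were seen.

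Matricellular proteins, which sit in the matrix and signal to cells without bearing load, changed in both directions: 7 of 28 rose and 3 fell, with a median of 0.08. Ccn5, a growth-restraining member of the CCN family, had 7.81 and 7.95 in KO pools, against 5.75 and 6.32 in WT pools. Thbs1, thrombospondin 1, which is induced by stretch and can activate latent TGF-beta, had 10.48 and 10.56 in KO pools, against 9.18 and 8.72 in WT pools. These rises, of 1.85 (SE 0.20) and 1.57 (SE 0.17), each had an adjusted p of 0.00579 and were stable. Ptx3, a long pentraxin, rose by 1.40 and Ccn1, a mechanically responsive CCN protein, by 1.36, and neither was stable. Chosen after their values were seen, the hyaluronan-binding Tnfaip6 rose by 1.58, Thbs4 by 1.04 and Thbs2 by 0.54, while the tenascin Tnxb fell by 0.52 and Smoc1 by 0.71. Ecm2 fell by 0.76, with 8.51 in each KO pool, against 9.30 and 9.25 in WT pools.

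Proteases, proteoglycans and adhesion receptors had smaller called shares than the matricellular list (35.7%). These were 12.2%, 8.82% and 12%, against 2.74% of all genes tested. Of 41 proteases and inhibitors 4 rose and 1 fell, with Mmp3, Mmp12, Mmp13 and Adamts18 dim. Adamts8, a secreted metalloprotease, had 7.22 and 7.24 in KO pools, against 6.07 and 6.02 in WT pools, a stable rise of 1.18 (SE 0.10, adjusted p = 0.0023), or 0.71 with its 2 probe sets averaged. Timp4, a metalloprotease inhibitor of heart and vessels, had 8.36 and 8.27 in KO pools, against 9.31 and 9.42 in WT pools. It fell by 1.05 (adjusted p = 0.00816), and the adjusted p was 0.0575 without WT replicate 2. Adamts12 rose by 0.47, and so did Mmp8 (1.99) and Adam8 (0.97), which are made by neutrophils and other leukocytes. Mmp8 is counted again among the neutrophil markers described below. Among proteoglycans, Fmod, the collagen-binding fibromodulin, rose by 0.96 and the syndecan Sdc3 by 0.52, and Vcan, the versican of provisional matrix, fell by 0.53, out of 34 tested. Of 25 integrin and focal adhesion genes 3 rose. Itga11, the alpha chain of a receptor for fibrillar collagen, had 6.90 and 7.14 in KO pools, against 5.75 and 5.55 in WT pools, a stable rise of 1.37 (SE 0.13, adjusted p = 0.00484). Itga4 rose by 0.84 and Itgb3 by 0.61.

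Genes of contraction showed no common direction. Of 28 smooth muscle contractile genes 2 rose and 2 fell, and the median of -0.04 turned to 0.03 without KO replicate 1. Ppp1r14a, the inhibitor of myosin phosphatase known as CPI-17, had 8.98 and 8.78 in KO pools, against 7.62 and 7.82 in WT pools (difference 1.16, adjusted p = 0.0086). That call ended without KO replicate 1 (adjusted p = 0.0517). Pde5a, the phosphodiesterase that breaks down cyclic GMP, fell by 0.62 and Mustn1 by 0.92, and the small heat shock protein Hspb7 rose by 0.55. Myocd, the coactivator that drives contractile genes, had 9.43 and 9.39 in KO pools, against 9.82 and 9.85 in WT pools, and was not called (adjusted p = 0.0727). YAP and TAZ targets, which respond to stiffness and stretch, had 2 rises (Ccn1 and Wwc1) and 2 falls (Asap1 and Ptpn14) among 28, with a median of 0.11. Ccn2, another such target, had 11.75 and 11.79 in KO pools, against 11.13 and 11.29 in WT pools (adjusted p = 0.0503).

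Ion channels of muscle were called in 1 direction: of 39 tested, 5 fell (12.8%, against 1.19% of all genes tested) and 0 rose. Their median was -0.11 (-0.04 without WT replicate 2). Trpm3, a cation channel, had 4.66 and 4.89 in KO pools, against 6.12 and 6.44 in WT pools, and Kcnma1, the large-conductance calcium-activated potassium channel that relaxes smooth muscle, had 5.54 and 5.30 in KO pools, against 6.57 and 6.73 in WT pools. The differences of -1.51 (SE 0.14, adjusted p = 0.00374) and -1.23 (SE 0.14, adjusted p = 0.00723) were both stable calls. Kcnma1 has another, dimmer probe set with a mean of 4.66 in KO pools, against 4.49 in WT pools, and with its probe sets averaged the difference was -0.53 and no longer called (adjusted p = 0.0635). Kcnn2, a small-conductance calcium-activated potassium channel, fell by 1.34, and its KO values of 3.49 and 3.87 were below the dim limit. Ano1, a calcium-activated chloride channel, fell by 0.73, and Kcnj8, the pore of the vascular KATP channel, fell by 0.76. Atp1b1, a sodium pump subunit, had 9.41 and 9.84 in KO pools, against 10.78 and 10.67 in WT pools, a difference of -1.10 (adjusted p = 0.0132). Among vasoactive genes, Npy1r, a receptor for neuropeptide Y, fell by 1.13, while Edn1, endothelin 1, rose by 0.62 and the serotonin receptor Htr1b by 0.77, out of 39 tested.

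Growth factor signalling genes changed one by one. Igfbp2, which binds insulin-like growth factors, had 9.54 and 10.18 in KO pools, against 7.95 and 7.81 in WT pools, a stable rise of 1.98 (SE 0.19, adjusted p = 0.00484) or 3.95-fold. Hbegf, a ligand of the EGF receptor that is mitogenic for smooth muscle, had 8.26 and 8.27 in KO pools, against 6.95 and 7.23 in WT pools, also a stable rise (1.17, adjusted p = 0.00591). In the list of 58 tested, 5 rose and 5 fell. The other rises were Vegfd (0.90), Ptprz1 (0.80) and Fgf7 (0.58), and the falls were Angptl4 (-1.75), Angpt1 (-0.87), Fgf10 (-0.76), Pdgfra (-0.60) and Egfr (-0.52). Fgf7, Fgf10 and Egfr were chosen after their values were seen.

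The TGF-beta and BMP list, which is often examined in aneurysm, had 2 rises and 1 fall among 45, with a median of 0.02. Fstl3, a secreted antagonist of activin, had 9.30 in each KO pool, against 8.48 in each WT pool, a stable rise of 0.82 (SE 0.09, adjusted p = 0.00759). Inhba, the activin A subunit, rose by 0.72, and Tgfbr3, the coreceptor betaglycan, fell by 0.64. Of 41 Wnt genes 1 was called (2.44%, against 2.74% of all genes tested). That gene, Wnt16, had 7.56 and 7.37 in KO pools, against 6.51 and 6.38 in WT pools (difference 1.02, adjusted p = 0.00759). The call ended without WT replicate 2. None of 21 Notch genes was called by limma, and the one with the smallest p, the target Hey2, had an adjusted p of 0.0973. The ETS factor Etv1 fell by 1.13, and the MAP kinase phosphatases Dusp1 and Dusp5 rose by 0.79 and 0.93. Gfra2, the coreceptor for neurturin, had 7.92 in each KO pool, against 6.56 and 6.58 in WT pools, a stable rise of 1.35 (adjusted p = 0.0023). Among transcription factors of the outflow tract, Meox1 rose by 0.66 and Foxc2 by 0.71, out of 42.

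Some markers of myeloid cells rose in KO pools. In bulk tissue, more cells of a type and more RNA per cell cannot be told apart, and the same holds for fewer cells and less RNA. Of 21 tested neutrophil markers 11 rose (52.4%, against 1.54% of all genes tested) and 0 fell, with Ly6g and Stfa2 dim. Their median was 1.28 (1.01 to 1.42 in the leave-outs). Their summed level was 12.75 to 12.80 in KO pools, against 10.49 to 11.27 in WT pools. Mmp8, Il1r2, Stfa1, Stfa2l1 and Stfa3 are among the 11 and are also named in other paragraphs. The Stfa genes are close in sequence, so they may not be separate markers. S100a8, a calcium-binding protein abundant in neutrophils, had 10.80 and 10.71 in KO pools, against 8.68 and 7.71 in WT pools. Both KO pools were above both WT pools, which were themselves far apart, and the rise of 2.56 (SE 0.34, adjusted p = 0.0122) was not stable (adjusted p = 0.0745 without KO replicate 1). Granule genes of immature neutrophils, chosen after their values were seen, were mixed. Ngp rose by 1.28 (adjusted p = 0.0491), Elane had 5.66 and 4.93 in KO pools, against 4.48 and 4.16 in WT pools (adjusted p = 0.0606), and Mpo had 5.85 and 5.13 in KO pools, against 5.18 and 5.07 in WT pools (adjusted p = 0.46).

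The largest rise of a named gene was in Csta3, a stefin A family inhibitor of cysteine proteases, with 8.11 and 8.48 in KO pools, against 5.05 and 4.01 in WT pools. The difference was 3.76 (SE 0.34, adjusted p = 0.00374), and it stayed between 3.24 and 4.28 with a call in all 4 leave-outs. WT pool 2 lay below the dim limit. The family member Cstdc4 rose by 3.41, a stable call, and Stfa3, Stfa2l1 and Stfa1 rose by 2.43, 2.35 and 1.97. Cstdc5 and Cstdc6, chosen after their values were seen, rose by 1.55, a stable call, and by 1.40, which was not stable. These genes are close in sequence, and probes that bind several of them were not separated. Slfn4, a schlafen gene of myeloid cells, had 6.52 and 6.28 in KO pools, against 4.64 and 4.07 in WT pools, a stable rise of 2.05 (adjusted p = 0.00374). WT pool 2 of Slfn4 and of Cstdc6 and both WT pools of Cstdc5 were also below the dim limit. Cstdc5 has another probe set, below that limit in both groups, with a mean of 2.30 in KO pools, against 2.22 in WT pools.

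Of 27 macrophage and monocyte markers 4 rose (14.8%, against 1.54% of all genes tested), with a median of 0.38. Summed levels of the list were 13.29 to 13.35 in KO pools, against 13.04 to 13.08 in WT pools. Ccr2, the receptor that brings monocytes to Ccl2, had 6.42 and 6.38 in KO pools, against 5.42 and 5.22 in WT pools, a stable rise of 1.08 (SE 0.11, adjusted p = 0.00494). Ly6c2 rose by 1.25, Cd14 by 1.18 and Cx3cr1 by 0.93. Ptprc, the pan-leukocyte antigen, had 7.56 and 7.05 in KO pools, against 7.50 and 6.69 in WT pools, which overlap, and was not called (adjusted p = 0.734). Ptprc was chosen after its values were seen. Of 9 platelet markers 5 rose (55.6%, against 1.54% of all genes tested). The summed level of the 9 was 11.41 to 11.52 in KO pools, against 10.78 to 10.85 in WT pools. Gp9, of the von Willebrand factor receptor, had 8.73 and 8.31 in KO pools, against 7.50 and 7.38 in WT pools (difference 1.08, adjusted p = 0.0164). None of the 5 platelet calls was stable. Erythroid markers had sums of 8.78 to 9.05 in KO pools, against 8.26 to 8.43 in WT pools, with Tspo2 and Kel called higher of 9 and a median of 0.21 (0.45 without WT replicate 2).

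The calls among endothelial and adventitial markers were all falls. They made up 12% of the endothelial list and 10.5% of the fibroblast and adventitia list, against 1.19% of all genes tested. Of 25 endothelial markers 3 fell: Gpihbp1, which holds lipoprotein lipase on capillaries, by 1.08, the VEGF receptor Kdr by 0.62 and the nitric oxide synthase Nos3 by 0.65. Their summed level was 13.06 to 13.09 in KO pools, against 13.25 to 13.30 in WT pools, and the median of -0.18 was -0.29 without WT replicate 1 and -0.11 without WT replicate 2. Of 19 fibroblast and adventitia markers Dpt and Pdgfra fell, by 0.55 and 0.60, with summed levels of 14.11 to 14.19 in KO pools, against 14.34 to 14.37 in WT pools. None of these 5 calls was stable. The summed level of brown and white fat markers, given below, was also lower in the same KO pools, and its part in these falls was not tested. Mast cell markers had sums of 10.05 to 10.66 in KO pools and 10.42 to 11.04 in WT pools, with 0 of 7 called and 4 dim. Lymphatic endothelial and valve or mesothelial lists also had no call, among 6 and 14 members.

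**Figure D2:**
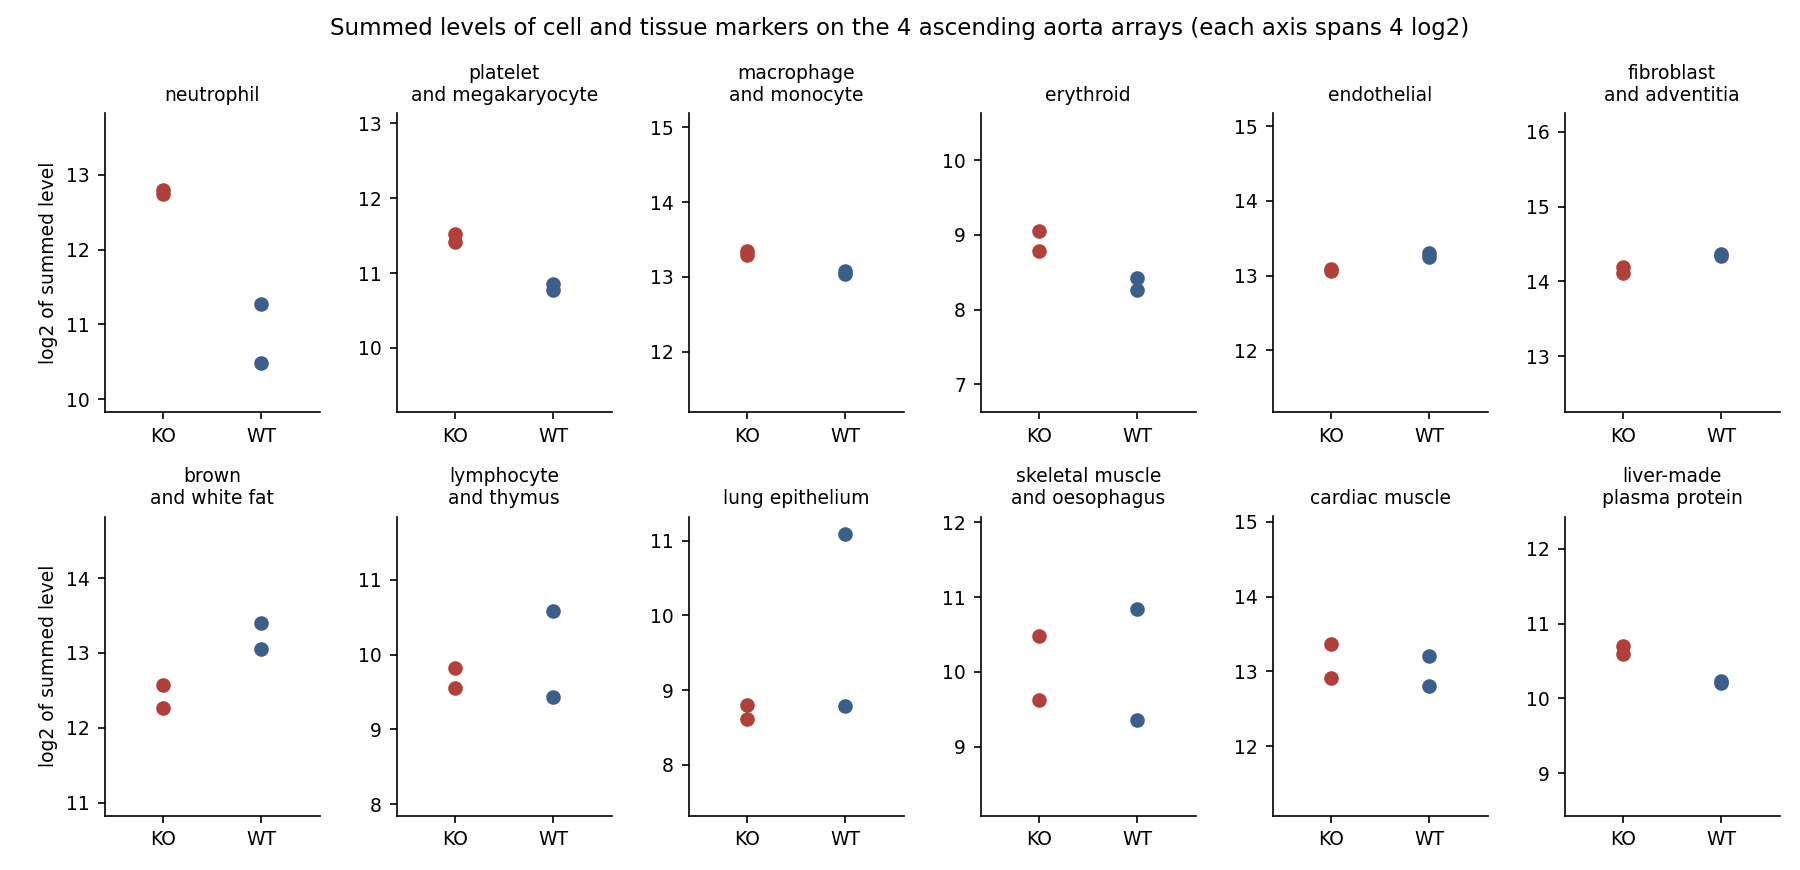
Log2 of the summed linear signal of the tested markers of 12 cell and tissue types, for the 2 KO and the 2 WT pools of ascending aorta, KO left of WT, with every vertical axis spanning 4 log2 units. The neutrophil sums of KO pools, 12.75 to 12.80, sit above those of WT pools, 10.49 to 11.27, and the fat marker sums of KO pools, 12.27 to 12.57, sit below those of WT pools, 13.06 to 13.40.

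Some inflammatory mediators rose as well. Ptgs2, the inducible cyclooxygenase that commits arachidonic acid to prostaglandins, had 8.39 and 8.33 in KO pools, against 5.24 and 5.59 in WT pools. The difference of 2.95 (SE 0.18, adjusted p = 0.000551) or 7.71-fold was stable. Of 21 tested prostanoid genes Pla2g7, which hydrolyses platelet-activating factor, was the other rise (0.72), and 0 fell. Chemokines and cytokines had 10 rises among 38 (26.3%, against 1.54% of all genes tested) and 0 falls, with 8 more dim. The median was 0.38 (0.28 to 0.50 in the leave-outs). Ccl2 and Ccl7, which attract monocytes, had 9.56, 10.03 and 9.26, 9.15 in KO pools, against 8.09, 7.36 and 7.38, 6.62 in WT pools. Cxcl1 and Cxcl2, which attract neutrophils, had 7.14, 6.37 and 6.68, 6.35 in KO pools, against 5.37, 5.01 and 5.01, 5.49 in WT pools. These 4 genes were higher in KO pools by 2.07, 2.20, 1.56 and 1.26. None of the 10 chemokine and cytokine calls was stable, and Ccl2 and Ccl7 lost theirs in each leave-out (adjusted p = 0.0661 to 0.167 and 0.0762 to 0.176). Il1b, interleukin 1 beta, rose by 1.72 with WT pool 2 below the dim limit, and Ppbp, a platelet chemokine, by 1.65. The neutrophil sums given above were also higher in KO pools than in WT pools, and the part of neutrophils in the rises of these genes was not tested.

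The promoters of Cxcl1 and Cxcl2 are shown because they sit side by side in the genome, both genes rose, and each holds a run of letters that the factor NF-kB is known to bind. The NF-kB motif, searched by its degenerate form on both strands, was in 4.51% of 32851 mouse promoters (250 bases before to 50 after a gene's start). It was in 6 of 28 promoters of the chemokine list (21.4%) and in those of 2 of the 6 called genes that had a promoter in the table. In both promoters the letters in capitals hold a pair of overlapping matches, 1 on each strand and offset by 1 base. A match describes these letters and does not show binding. The sequences are from RefSeq on build GRCm38.p6, plus strand, at chr5:90890995-90891294 and chr5:90903649-90903948.
Cxcl1: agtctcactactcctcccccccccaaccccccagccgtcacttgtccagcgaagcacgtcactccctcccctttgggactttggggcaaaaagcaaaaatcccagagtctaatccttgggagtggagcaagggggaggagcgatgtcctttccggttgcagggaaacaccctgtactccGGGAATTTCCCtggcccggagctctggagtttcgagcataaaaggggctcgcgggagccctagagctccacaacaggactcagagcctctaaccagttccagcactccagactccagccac
Cxcl2: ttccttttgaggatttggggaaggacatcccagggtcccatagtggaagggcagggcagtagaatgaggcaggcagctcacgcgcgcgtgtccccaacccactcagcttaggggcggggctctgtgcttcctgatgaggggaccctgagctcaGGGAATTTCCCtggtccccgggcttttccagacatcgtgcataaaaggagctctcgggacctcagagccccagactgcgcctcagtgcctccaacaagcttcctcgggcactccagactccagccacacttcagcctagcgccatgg

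Interferon response genes rose in part. Of 28 tested 6 rose (21.4%, against 1.54% of all genes tested) and 0 fell. A positive difference was seen for 27, and the median was 0.41 (0.31 to 0.45 in the leave-outs). Isg15, a ubiquitin-like modifier, had 8.32 and 8.18 in KO pools, against 7.0 and 6.62 in WT pools (difference 1.44, SE 0.18, adjusted p = 0.0105). Rsad2, the antiviral protein viperin, had 7.70 and 7.97 in KO pools, against 6.75 and 6.86 in WT pools. Its rise of 1.03 (adjusted p = 0.00891) was the stable one, and Isg15 had an adjusted p of 0.0608 without WT replicate 2. Oasl2, Irf7 and Ifi27 rose by 0.73, 0.66 and 0.56. The element read as TTTC, any 2 bases and TTTC again, known to be bound by interferon regulatory factors, was found on either strand in 3.44% of all promoters, in 12 of 24 promoters of the list (50%), and in those of Isg15 and Rsad2 among the 4 called genes with a promoter in the table. The Isg15 promoter is shown with its 3 matches in capitals, which run into each other with 2 overlaps and read here as their reverse complement (RefSeq, GRCm38.p6, chr4:156200769-156201068, minus strand).
Isg15: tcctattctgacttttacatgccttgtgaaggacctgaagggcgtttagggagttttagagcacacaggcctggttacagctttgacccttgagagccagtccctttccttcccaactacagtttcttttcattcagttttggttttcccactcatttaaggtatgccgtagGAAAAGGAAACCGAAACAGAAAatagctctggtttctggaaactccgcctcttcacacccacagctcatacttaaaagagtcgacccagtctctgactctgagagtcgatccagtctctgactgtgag

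Immediate early genes are switched on within minutes of a stimulus. Of 29 tested, 8 rose in KO pools (27.6%, against 1.54% of all genes tested) and 0 fell. Positive differences were seen for 25. The median was 0.59 (0.46 to 0.71 in the leave-outs), against 0.01 over all genes. Ier3 had 9.04 and 8.80 in KO pools, against 7.46 and 7.64 in WT pools, a stable rise of 1.37 (SE 0.12, adjusted p = 0.00374). The zinc finger factor Egr1 had 8.96 and 9.12 in KO pools, against 7.33 and 7.03 in WT pools, a rise of 1.85 that held without WT replicate 1 (adjusted p = 0.0465) and was lost without the others (0.0604 to 0.0774). Egr2 rose by 1.15, and the AP-1 subunits Fosb and Junb by 1.32 and 1.00. Atf3 and Zfp36, chosen after their values were seen, rose by 1.08 and 0.73. Fos and Nr4a1 were chosen in the same way. Fos had 5.97 and 6.79 in KO pools, against 5.31 and 5.27 in WT pools, and was not called (adjusted p = 0.204), and Nr4a1 had 8.85 and 8.90 in KO pools, against 7.96 and 7.49 in WT pools (adjusted p = 0.0584). Of 27 NF-kB regulators and targets, Sele, the E-selectin of activated endothelium, and Ier3 rose. Plaur, the urokinase receptor, rose by 0.98. The time between dissection and freezing of each pool is not stated in the sources used here.

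Some genes of cholesterol synthesis were higher in KO pools, with 9 of 26 rising (34.6%, against 1.54% of all genes tested) and 0 falling. The median was 0.45 (0.38 to 0.47). Cyp51, lanosterol demethylase, had 7.28 and 7.59 in KO pools, against 6.25 and 6.09 in WT pools (difference 1.26, SE 0.15, adjusted p = 0.00811). Hmgcs1, HMG-CoA synthase, had 8.47 and 8.95 in KO pools, against 7.53 and 7.66 in WT pools (difference 1.12, SE 0.15, adjusted p = 0.0131). Insig1, the sensor protein that restrains the pathway, rose by 0.92, Fdps by 1.19 and the sterol carrier Stard4 by 0.86. Chosen after their values were seen, Sqle rose by 1.33, Msmo1 by 1.14, Srebf2, the transcription factor of the pathway, by 0.77 and Sc5d by 0.63. None of the 9 calls was stable, and the adjusted p of Cyp51 was 0.0564 without WT replicate 2. Abca1, the exporter of cholesterol, had 8.22 and 8.31 in KO pools, against 8.71 and 8.92 in WT pools (adjusted p = 0.0526). Fasn, fatty acid synthase, rose by 0.69.

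The promoter of Hmgcs1 is shown because it alone among the 6 called sterol genes with a promoter in the table holds the letters TCACNCCAC, a form of the sterol regulatory element. That motif was in 1.24% of all promoters and in 1 of 28 promoters of the sterol list (3.57%), counting both strands. All 6 of those called genes (Cyp51, Hmgcs1, Insig1, Msmo1, Sc5d and Srebf2) held CCAAT, the letters bound by the partner factor NF-Y, which was in 37.4% of all promoters and in 19 of the list's 28 (67.9%). In the sequence the capitals TCACCCCAC mark the sterol element, and the 4 capital runs ATTGG are CCAAT on the other strand (RefSeq, GRCm38.p6, chr13:119690101-119690400, plus strand).
Hmgcs1: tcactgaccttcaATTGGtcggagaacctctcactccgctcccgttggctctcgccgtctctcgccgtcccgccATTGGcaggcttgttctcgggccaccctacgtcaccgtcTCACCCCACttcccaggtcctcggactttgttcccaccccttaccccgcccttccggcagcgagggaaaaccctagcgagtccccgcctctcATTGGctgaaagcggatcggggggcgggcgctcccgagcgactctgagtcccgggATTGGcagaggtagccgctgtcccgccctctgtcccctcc

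The calls among genes of fat use were falls. Of 29 fatty acid oxidation and PPAR target genes 4 fell (13.8%, against 1.19% of all genes tested) and 0 rose. Negative differences were seen for 25, and the median was -0.34 (-0.45 to -0.25 in the leave-outs). Angptl4, a secreted inhibitor of lipoprotein lipase, had 5.09 and 5.93 in KO pools, against 7.34 and 7.18 in WT pools. It fell by 1.75 (SE 0.27, adjusted p = 0.0183), and the call was lost without WT replicate 1 (0.0844), WT replicate 2 (0.0851) and KO replicate 1 (0.0745). Pparg, the receptor that directs fat cell formation, fell by 1.10, its coactivator Ppargc1a by 0.66, and Cpt1a, which brings fatty acids into mitochondria, by 0.59. The list of brown and white fat markers had 6 of 20 lower, of which Pparg and Ppargc1a are the same genes counted above, and a median of -0.54 (-0.75 without WT replicate 1, -0.38 without WT replicate 2). Their summed level was 12.27 to 12.57 in KO pools, against 13.06 to 13.40 in WT pools, and Elovl3 was dim. Car3, carbonic anhydrase of fat and muscle, had 9.53 and 10.08 in KO pools, against 11.21 and 11.70 in WT pools, and Adipoq, the fat hormone adiponectin, had 6.41 and 6.47 in KO pools, against 7.44 and 8.02 in WT pools. Ucp1, of brown fat and chosen after its values were seen, had 4.98 and 4.59 in KO pools, against 4.85 in WT pool 1 and 6.85 in WT pool 2 (adjusted p = 0.377). The part of attached fat in the lower lipid genes was not tested.

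Further stress and metabolic groups had called shares from 0% (oxidative stress) to 13.8% (unfolded protein), against 2.74% of all genes tested. Of 26 hypoxia and glycolysis genes 3 rose, with a median of 0.34. The lactate exporter Slc16a3 had 6.31 and 5.86 in KO pools, against 5.09 and 5.17 in WT pools (difference 0.95), the glucose transporter Slc2a1 rose by 0.78 and phosphofructokinase Pfkl by 0.57. Of 29 unfolded protein and amino acid stress genes 3 rose and 1 fell, with a median of 0.23: the chaperones Hyou1 (0.77) and Calr (0.59) and the stress regulator Nupr1 (0.63) rose, and the lipoprotein receptor Vldlr fell by 0.86. Of 16 heat shock genes Hspa1a and Hsph1 rose, by 0.89 and 0.58. Hspa1a has a near-identical neighbour, Hspa1b, so its signal is uncertain. Of 32 FoxO, p53 and glucocorticoid targets 4 fell and 0 rose: Fam107a (-1.62), Trp53inp1 (-1.41), the ubiquitin ligase Fbxo32 (-1.10) and Zbtb16 (-1.05). That list's median of -0.25 was -0.08 without WT replicate 2, and the clock gene Npas2 fell by 0.88 out of 17 clock genes. Of 36 replication and mitosis genes Mcm2, Cdc6 and Ccnd2 rose, by 0.84, 0.78 and 0.50. None of 19 oxidative stress and metallothionein genes was called by limma, and Sqstm1, with the smallest p, had an adjusted p of 0.0857.

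**Figure D3:**
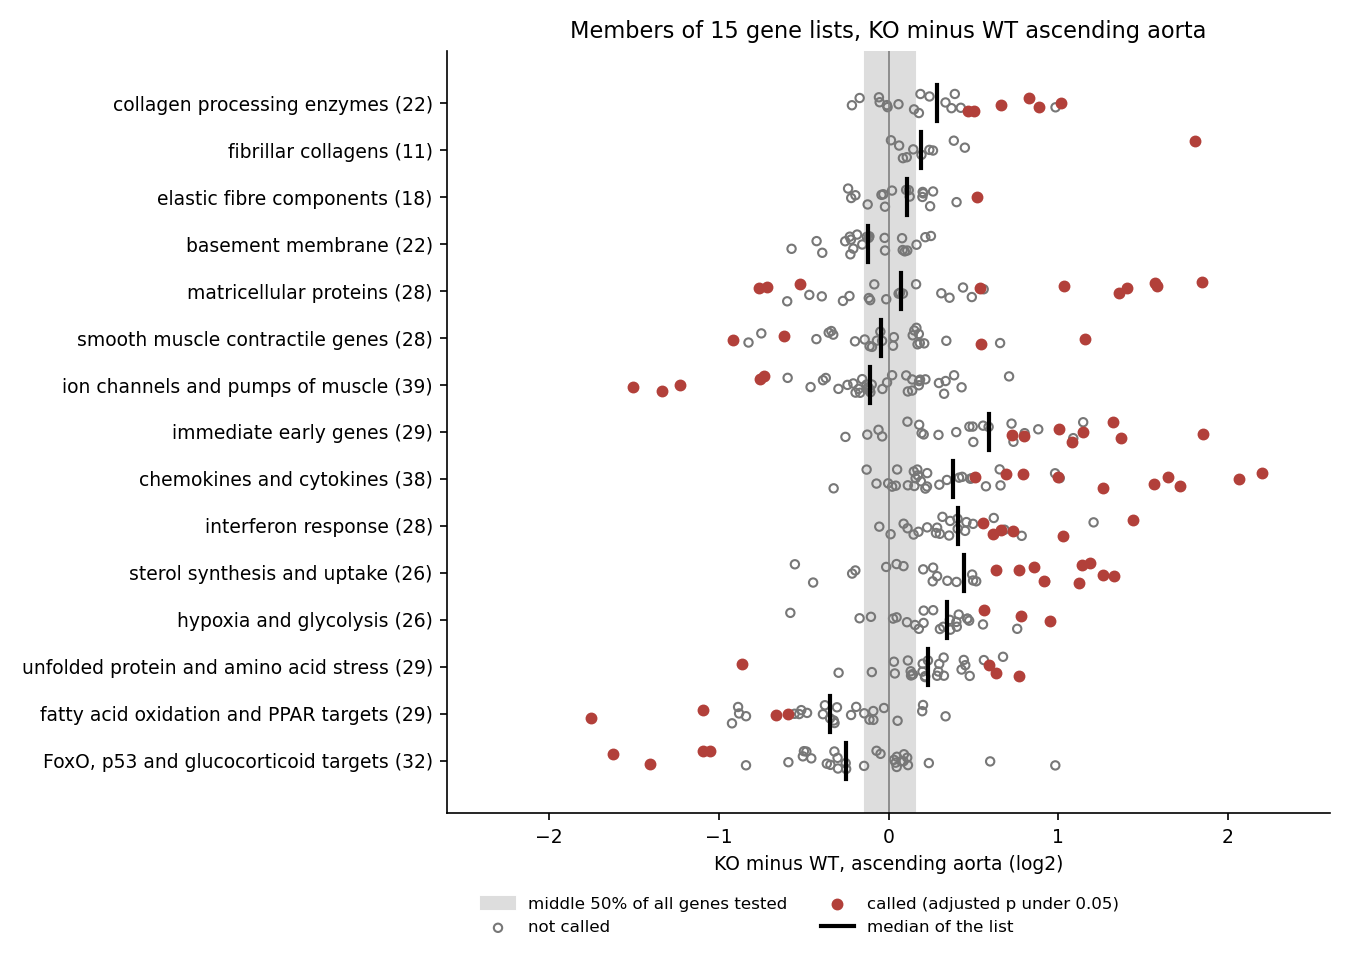
KO minus WT difference (log2) in the ascending aorta for each tested member of 15 gene lists, with filled points for called genes, open points for the rest, a bar at each list's median and a grey band over the middle 50% of all genes tested. The immediate early, chemokine, interferon and sterol lists hold 8, 10, 6 and 9 called rises and 0 falls, and the ion channel list holds 5 called falls and 0 rises.

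Among other large falls, Clca3a2, a member of the CLCA family of secreted proteases, had 10.16 and 10.20 in KO pools, against 11.49 and 11.35 in WT pools, a stable difference of -1.24 (SE 0.10, adjusted p = 0.0023). Il31ra, a cytokine receptor chain, had 5.16 and 5.25 in KO pools, against 6.44 and 6.79 in WT pools, also a stable fall (-1.42, adjusted p = 0.00527). Lifr, chosen after its values were seen, was the other cytokine receptor that fell, while Tnfrsf11b, the decoy receptor osteoprotegerin, rose by 0.85 and Il1r2, the decoy for interleukin 1, by 1.76. The glycosyltransferase Galnt15 had 5.84 and 6.67 in KO pools, against 7.80 and 8.32 in WT pools. Its difference of -1.80 (adjusted p = 0.0477) was the largest after Lox among the called falls of named genes, and was lost in each leave-out. Rbp7, a retinol-binding protein of endothelium and fat, fell by 1.16, the galectin Lgals4 by 1.26 and Gabrq, a GABA receptor subunit, by 1.14.

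MicroRNA genes were outside the rule for named genes and were chosen after their values were seen. Of 225 tested microRNA names 3 were called, all lower in KO pools: Mir99a, Mir452 and Mir145a. Over all genes tested 2.74% were called and 1.19% were called lower, so this count does not set microRNAs apart from other genes. The probe sets are annotated to microRNA genes, so precursor and mature forms, and the 2 arms of a hairpin, were not separated. Both mature arms of the genes with the smaller adjusted p are shown, since the array cannot tell which arm its signal came from, with the seed (bases 2 to 8) in capitals (RefSeq, GRCm38.p6). The miR-99a arms lie on the plus strand at chr16:77598940-77598961 and chr16:77598977-77598997, and the miR-452 arms on the minus strand at chrX:72262271-72262292 and chrX:72262235-72262256. No 2 of the 4 seeds are the same.
mmu-miR-99a-5p: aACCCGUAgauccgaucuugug
mmu-miR-99a-3p: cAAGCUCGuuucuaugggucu
mmu-miR-452-5p: uGUUUGCAgaggaaacugagac
mmu-miR-452-3p: uCAGUCUCaucugcaaagaggu

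Mir99a had 6.49 and 6.54 in KO pools, against 7.76 and 8.18 in WT pools. Both KO pools were below both WT pools, and the difference of -1.45 (SE 0.16, adjusted p = 0.00588) was stable. Mir452 had 5.04 and 4.71 in KO pools, against 6.06 and 6.59 in WT pools (difference -1.45, SE 0.19, adjusted p = 0.0115), with an adjusted p of 0.0534 without WT replicate 2 and 0.0551 without KO replicate 2. Mir145a and Mir143 are processed from 1 transcript that is abundant in smooth muscle. Mir145a had 5.67 and 5.37 in KO pools, against 7.01 and 6.55 in WT pools (difference -1.26, adjusted p = 0.0434, and 0.0894 to 0.157 in the leave-outs). Mir143 had 6.70 and 5.58 in KO pools, against 7.68 and 7.55 in WT pools, and was not called (adjusted p = 0.0592).

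The same genes were read in the descending aorta. Its arrays entered the dim filter, the choice of probe set and the estimate of spread, so its values are not independent of how the genes were called. There 380 genes were called (2.28%). The 455 genes called in the ascending segment had a median descending difference of 0.54 for its rises and -0.46 for its falls, and 428 of them (94.1%) had the same sign, against 67.6% of all genes tested. Both segments called 164 genes in the same direction (103 higher, 61 lower) and 0 in opposite directions, which is 36% of the ascending calls and 43.2% of the descending calls. Col8a1, Ccn5, Igfbp2, Itga11, P4ha1, Adamts8 and Mir99a were among them, with descending differences of 2.57, 2.12, 1.83, 1.52, 1.06, 1.45 and -1.98. The fit over all 8 arrays gives both segments 1 estimate of spread, so the 2 sets of p-values are not independent.

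The test of a difference between the segments called 0 genes by limma at an adjusted p of 0.05 (smallest 0.439), with 932 genes at an unadjusted p under 0.05, and 1 call with a trended robust prior. Among the 455 genes called in the ascending aorta, 149 had an unadjusted p under 0.05 for that difference. These genes were chosen by their ascending difference, which is part of the segment difference, so a high count among them is built in. The same limit holds for the single genes named next, and no conclusion was drawn from either. Ptgs2 differed by 2.95 in the ascending and 1.15 in the descending aorta, where its levels were 6.32 and 5.78 in KO pools, against 4.87 and 4.93 in WT pools (unadjusted p of the difference 8.23e-05, adjusted 0.439). Csta3 differed by 3.76 and 0.36 (unadjusted p = 7.43e-05), and Ccr2 by 1.08 and -0.03 (unadjusted p = 5.19e-05). Of the neutrophil list none was called in the descending aorta, where the median was 0.44, and of the platelet list none, with a median of -0.10. The sterol list had 10 rises there and a median of 0.50. No difference of a single gene between segments passed the adjustment, and the list values were not tested between segments.

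**Figure D4:**
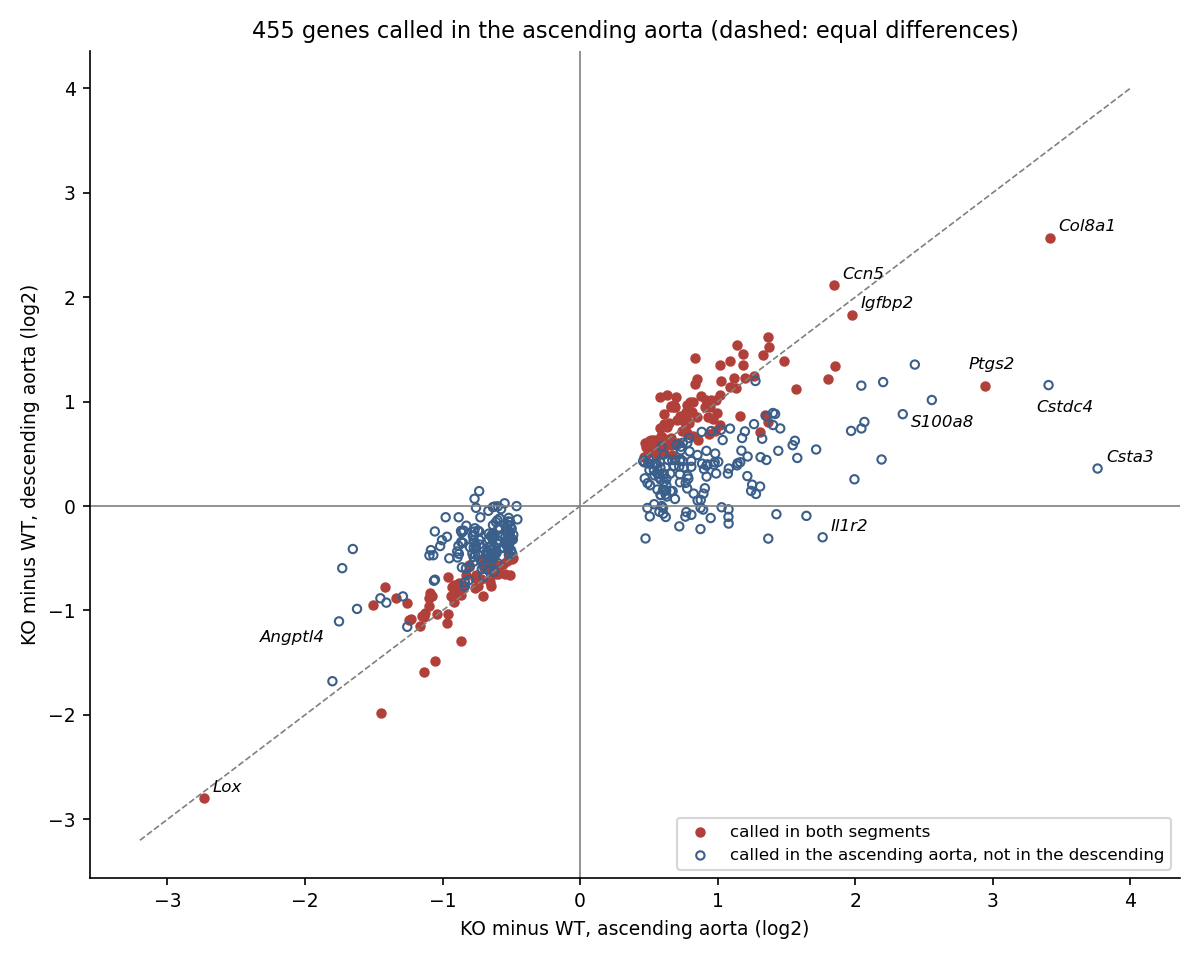
KO minus WT difference (log2) in the ascending aorta (horizontal) against the descending aorta (vertical) for the 455 genes called in the ascending segment, filled where both segments called the gene and open where only the ascending one did, with a dashed line of equal differences. Lox, at -2.73 and -2.80, and Ccn5, at 1.85 and 2.12, lie near that line, and Csta3, at 3.76 and 0.36, lies far from it.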

How the data were processed

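NuGEN kits amplified and labelled the RNA of the 8 pools for Affymetrix mouse gene arrays, per the labels. The authors deposited log2 values from RMA, run in Affymetrix Expression Console per the submitters' processing notes, which name no version. Array medians were 5.11 to 5.19. RMA sets all arrays to 1 distribution, so a change in total RNA per cell would not show.

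Of 41345 probe sets, 23521 had 1 gene symbol, 1814 several and 16010 none. The brightest probe set was kept for each gene, and genes below the 25th percentile of mean signal (4.11) were left out as dim. The model, in limma 3.58.1 under R 4.3.3, had a coefficient for each of the 4 groups. eBayes moderated the spread (prior df 4.51 beside 4 residual df), and Benjamini-Hochberg adjustment ran over all genes tested. The fit was tested on simulated data. Summed levels are log2 of summed linear signals of a list's tested members. Promoter and microRNA sequences came from RefSeq tables of GRCm38.p6. Motifs were searched in python 3.11.15 and figures made with matplotlib 3.10.9.

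The 55 gene lists hold 1425 genes, of which 1311 were measured and 1264 tested. Named genes were the lysyl oxidase family, the 20 largest non-overlapping rises and falls, the 10 smallest p-values, and the 6 members with the smallest p in each list, of which 1 or more was uncalled where any was. Predicted genes, clone names, small RNAs and olfactory or vomeronasal receptors were skipped in the ranked parts. Members and lists were chosen with earlier results of these data known. Alternatives were other dim filters, priors, normalizations and probe set rules, weighted arrays, a block for replicate number, minimum folds, a fit on the 4 ascending arrays alone, and leaving out single arrays.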

Additional observations from a re-analysis of the deposited data

How the results depend on the processing

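The fit reported made 455 ascending calls. Refitting made 303 with no dim filter (288 of them shared with the 455), 756 after removing genes below the 50th percentile (371 shared), 1014 under a prior that was trended and robust (438 shared), 100 with only the arrays compared (93 shared) and 65 against a 1.2-fold minimum. Leaving out 1 of the 8 arrays gave 64 (without WT ascending replicate 2) to 353. The same settings gave 155, 717, 922, 105 and 48 for the 380 descending calls, with 20 to 226 in the leave-outs, and 0 to 11 for the 0 calls of the segment difference (1 with the trended robust prior, 11 without KO descending replicate 1). Cyclic loess, arrays shifted to 1 median, array weights, a gene's mean probe set, all probe sets and a 1.5-fold minimum kept the ascending count between 364 and 472. Cyclic loess shared 434 of its calls with the 455, and arrays shifted to 1 median shared 365. That shift made 267 rises and 144 falls, against 257 and 198 in the fit reported, so the balance of directions depended on the normalization. With the replicate number as a block (replicate block), 384 ascending, 200 descending and 0 segment-difference calls were made. Deviations of same-numbered arrays correlated at 0.13 between the ascending groups and at -0.10 to 0.12 between other groups, so the numbers were not taken as pairs. Beside the genes of the rule, the 31 named after their values were seen were run through the alternatives. No called gene among these 360 changed sign under an alternative, while 13 of the 188 uncalled ones did, such as Loxl1 (0.02, but -0.12 without WT ascending replicate 2). Of the 172 called genes, 24 stayed called in each alternative they entered. With a gene's probe sets averaged, Slc2a1 (0.52, adjusted p = 0.0604) and Fgf10 (-0.55, adjusted p = 0.0519) lost their calls in the limma fit, as Kcnma1 did. Why the other calls ended was not tested, except that leave-outs and fits on fewer arrays hold fewer samples. The scale keeps no count depth, and with 2 pools a group only large or tight differences could pass.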
